A study of Mus musculus with 4 samples.

Results

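Basal cells of the mouse mammary gland were described from 4 droplet-based single-cell RNA libraries. A barcode was called basal when the summed UMI count of Krt5, Krt14, Krt17 and Acta2 (the basal sum) was at least 5 and more than 3 times the summed count of Krt8, Krt18 and Krt19 (the luminal sum). Luminal barcodes met the mirror rule. A UMI is a molecular tag that counts each captured transcript once. Of the 17667 barcodes with at least 1000 UMIs, at least 500 genes and at most 10% mitochondrial UMIs, 7000 were basal, 6725 were luminal and 3942 were neither. The cells were chosen by the measured counts of these 7 genes in the same libraries, so the differences between basal and luminal cells below describe the chosen cells and carry no test.

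The mice were of the FVB strain with the genotype Tfap2cfl/fl / Krt5-CreERT2 in every group. Both alleles of Tfap2c, the gene of the transcription factor AP-2γ, were flanked by loxP sites, and a tamoxifen-activated Cre recombinase was driven by the Krt5 promoter. The corn oil group (2 libraries) received the vehicle and the 4OHT group (2 libraries) received 4-hydroxytamoxifen, injected daily from week 4 of life for 5 days in one label and 1 week in another. The fourth mammary glands were collected at week 9, from 2 mice per group, and the series concerns deletion of Tfap2c in the mammary stem cell compartment. Mice without Cre or without floxed alleles were not analysed here, so an effect of 4OHT itself cannot be told apart from an effect of Cre activity.

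The mammary duct has an inner luminal layer and an outer basal layer that rests on the basement membrane. Most basal cells of the adult gland are myoepithelial: they carry the basal keratins, attach through hemidesmosomes and integrins, deposit basement membrane, and hold a smooth muscle contractile apparatus that squeezes milk along the ducts when oxytocin binds its receptor. The transcription factor p63, encoded by Trp63, is needed for basal identity in stratified and glandular epithelia, and the basal layer is also where mammary stem cell activity has been placed by transplantation.

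The libraries held between 17351950 and 22017878 UMIs. Throughout, values for the libraries are given in the order corn oil 1, corn oil 2, 4OHT 1 and 4OHT 2. Basal barcodes numbered 1495, 1926, 1415 and 2164. Their median depths were 5153, 3174.5, 3864 and 2837.5 UMIs per cell, so the libraries numbered 1 were deeper than those numbered 2 in each group. Between 18 and 36 barcode sequences were shared by any pair of libraries, out of 3546 to 5545 per library. Levels are given as CPM, the counts of a gene summed over the basal or luminal cells of a library and given per 1000000 UMIs of that sum.

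The label was checked first against the 4 genes of the rule, which it fixes in part. All 4 genes were seen in 52.7%, 46.6%, 48.3% and 46.8% of basal cells. Krt5 was the gene seen least, in 60.7%, 54.5%, 57.7% and 53.4% of them. No keratin of the rule was seen in 2, 10, 2 and 12 cells, which were called on Acta2 alone. Cells with a keratin but no Acta2 UMI were more numerous than these, and cells without Acta2 were 10.4%, 7.17%, 16.1% and 10.1% of basal cells. The rule's limits cut through few cells at the lower count and more at the ratio. Basal cells with a basal sum of 5 to 9 were 2.81% to 4.57% of the class, while 48, 60, 50 and 47 barcodes lay just outside at a sum of 3 or 4. Basal cells whose sum was over 3 but at most 4 times the luminal sum were 10.1%, 7.17%, 15.3% and 12.3% of the class, and 181, 143, 302 and 308 barcodes lay just outside at over 2 but at most 3 times.

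Markers of other cell types were low in the basal sums. Of 8 genes of pericytes and vascular smooth muscle, which also use Acta2, none reached a mean of 20 CPM in basal or luminal cells. Their summed level was 6.67, 5.36, 8.6 and 10.7 CPM, with Abcc9 at 0 in all 4 libraries and Rgs5 at 0 to 1.36 CPM. Of 10 leukocyte genes none reached that level, Ptprc was at 0 UMIs, and the sum lay between 14.1 and 27.3 CPM. Of 9 endothelial genes only Pecam1 reached it, at 11.6, 39.2, 7.08 and 48.6 CPM in basal and 17, 37.6, 8.67 and 44.5 CPM in luminal cells. The 8 fibroblast genes summed to 58.2, 116, 50.9 and 53.3 CPM in basal cells, of which Mmp2, a matrix metalloprotease, made up 43.3, 44.9, 40.0 and 33.2 CPM. Col1a1 lay between 0.152 and 2.30 CPM. The luminal sums of 4OHT 1 stood apart in 2 lists: their fibroblast genes summed to 264 CPM against 22.3 to 79.8 in the other libraries, and their smooth muscle contractile genes to 2050 CPM against 1099 to 1220. The part of this in the basal to luminal differences of 4OHT 1 was not tested.

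**Figure D1:**
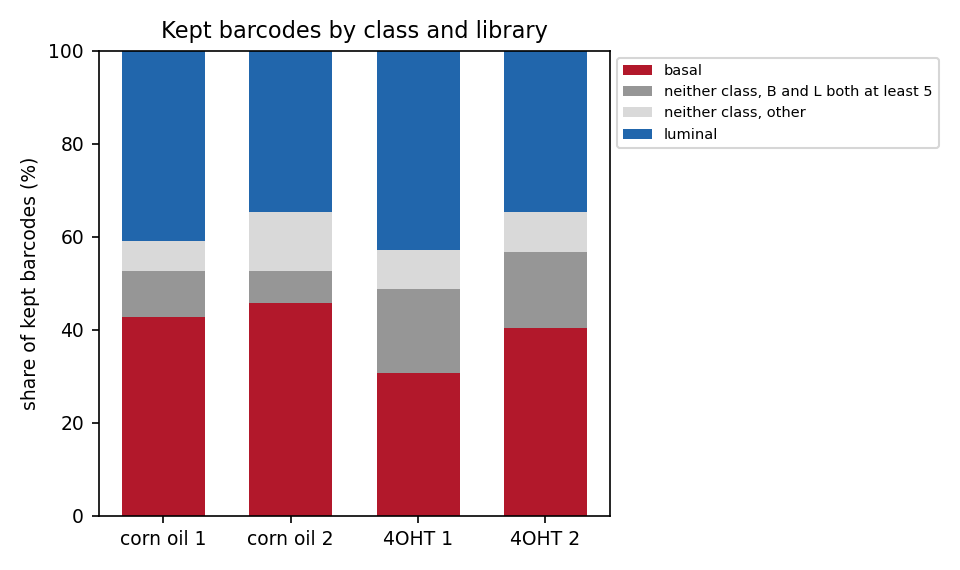
Share of the kept barcodes of each library (vertical axis, percent) that were basal, luminal, or in neither class, where barcodes with both sums at least 5 are shown apart. Basal cells were 42.8% and 45.8% of the corn oil libraries and 30.6% and 40.5% of the 4OHT libraries, while barcodes with both sums at least 5 in neither class were 9.77% and 6.73% against 18.1% and 16.3%.

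The basal share of kept barcodes was 44.3% ± 2.09 in the corn oil and 35.5% ± 6.98 with 4OHT (SD, n = 2 in each group). Both 4OHT libraries lay below both corn oil libraries, by −8.78 percentage points between the means. The exact two-sided permutation test over libraries gave p = 0.333, the smallest p that 2 against 2 libraries can give, so the design could not pass a threshold of 0.05 whatever the values. Between the libraries numbered 1 the difference was −12.2 points and between those numbered 2 it was −5.32 points. Without 4OHT 1 it was −3.84 points and without 4OHT 2 it was −13.7 points. Barcodes with both sums at least 5 that met neither rule differed in the other direction, by 8.96 points (exact permutation p = 0.333). With a looser rule, chosen after seeing the data, that asks only for a basal sum above the luminal sum, the basal share differed by −2.60 points, at −7.33 points between the libraries numbered 1 and 2.13 points between those numbered 2. The part of barcodes that hold both sums in the difference in share was not tested. After thinning each barcode to 1000 UMIs the difference was −5.43 points (exact permutation p = 0.667).

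Across the 4727 genes whose mean reached 20 CPM in either class, 284 (6.01%) were at least 4 times higher in basal than in luminal cells in each of the 4 libraries, and 157 (3.32%) at least 4 times higher in luminal cells, with 1 CPM added to each value. The sign of the difference was the same in all 4 libraries for 2234 genes on the basal side and 1226 on the luminal side, and mixed for 1267. The median gene stood at a log2 difference (basal minus luminal) of 0.24. The 15 genes with the largest difference in their least favourable library were Acta2, Krt14, Cxcl14, Cnn1, Mylk, Myl9, Il17b, Myh11, Actg2, Krt5, Kctd4, Postn, Wif1, 1500015O10Rik and Osr1. Of these, 6 are smooth muscle contractile genes, among them Acta2 of the rule, and 2 are basal keratins of the rule.

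**Figure D2:**
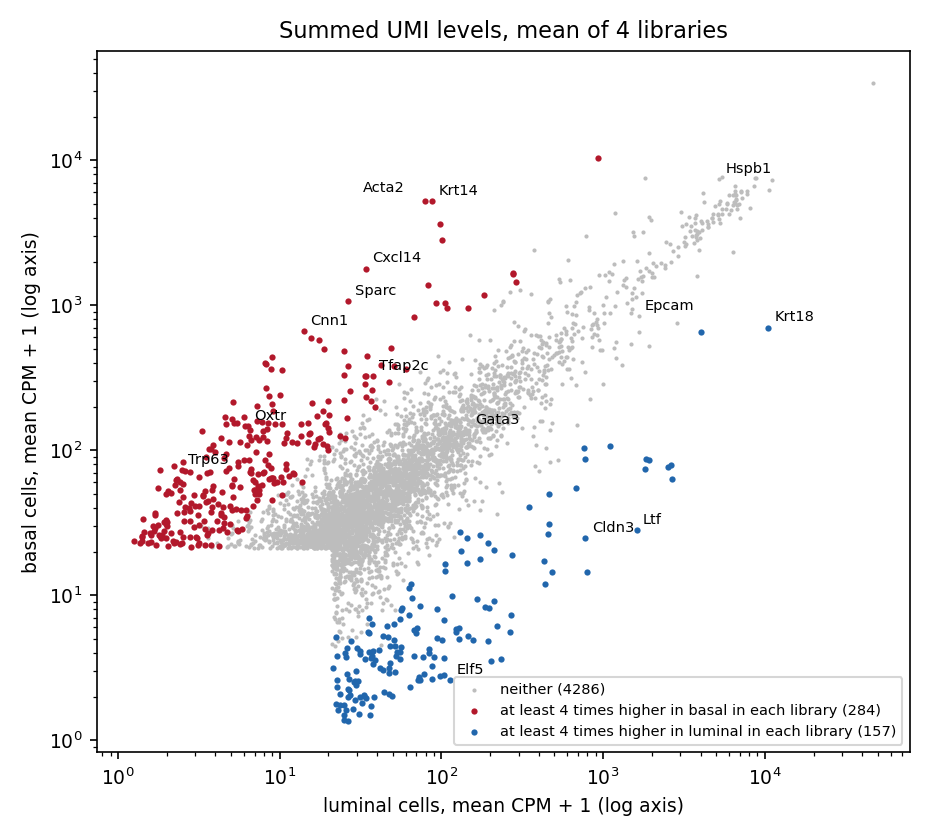
Mean level over the 4 libraries in basal cells (vertical axis) against luminal cells (horizontal axis), both as CPM + 1 on log axes, for the 4727 genes whose mean reached 20 CPM. Red points are the 284 genes at least 4 times higher in basal cells in each library, blue points the 157 at least 4 times higher in luminal cells, and the remaining 4286 are grey.

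The smooth muscle contractile genes stood far above luminal cells. Of 19 listed genes, 17 were at the level of 20 CPM and 13 of those were at least 4 times higher in basal cells in each library, with a median log2 difference of 4.59. Without Acta2, which the rule used, 12 of 16 were. Acta2, smooth muscle α-actin, was at 3979, 6288, 4859 and 5919 CPM in basal and 68.8, 71.6, 92.6 and 79.6 CPM in luminal cells. The log2 difference was 6.04 ± 0.34 (SD over 4 libraries), which the rule fixes in part because it chose both classes on Acta2. Cnn1, which encodes the actin-binding regulator calponin, was at 523, 686, 575 and 852 CPM against 11.8, 10.5, 14.0 and 16.2 CPM, a log2 difference of 5.54 ± 0.29. Mylk, the kinase that phosphorylates myosin light chain, was at 361, 555, 281 and 386 CPM against 6.08 to 8.91 CPM. Its substrate gene Myl9 was at 219, 495, 404 and 462 CPM against 4.45 to 10.8 CPM, and was lowest in corn oil 1. The smooth muscle myosin heavy chain Myh11 varied little, at 210, 226, 243 and 175 CPM. Actg2, enteric smooth muscle γ-actin, was at 77.1, 215, 95.5 and 154 CPM, higher in the library numbered 2 of each group. Other members of the list were broadly expressed in both classes. Vcl, a component of focal adhesions, differed by 0.46 ± 0.50 and Csrp1 by 1.41 ± 0.47 on the log2 scale. Cald1, which encodes caldesmon, was at 1068, 1189, 896 and 1026 CPM in basal cells, and its luminal level was 460 CPM in 4OHT 1 against 152 to 184 CPM elsewhere. Without 4OHT 1 the rule of 4 times would have held for Cald1 in the other libraries.

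The regulators of the contractile programme were less uniform. Srf, the serum response factor, was at 29.3, 28.0, 26.5 and 45.8 CPM in basal and 44.6, 33.2, 68.1 and 35.2 CPM in luminal cells, overlapping between the classes. Myocd, its smooth muscle coactivator, had no UMI in any basal or luminal cell of the 4 libraries. Mef2c, a muscle transcription factor, was at 79.6, 37.5, 40.0 and 40.2 CPM in basal against 0.807 to 1.52 CPM in luminal cells.

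The start regions of a few of these genes are shown because the rule and the Cre driver rest on Krt5 and the contractile group led the difference. They are RefSeq windows of 300 bases on GRCm38.p6, 250 before and 50 after the annotated start, read 5′ to 3′ on the gene's strand. Krt5 lies at chr15:101712856-101713155 on the minus strand, Acta2 at chr19:34255324-34255623 on the minus strand, Cnn1 at chr9:22099003-22099302 on the plus strand and Myl9 at chr2:156775214-156775513 on the plus strand. Capitals mark an exact match to GCCNNNGGC, a form of the AP-2 motif, in Acta2 and Cnn1. In Myl9 they mark an exact match to CCWWWWWWGG (W is A or T), the strict CArG box, the motif of serum response factor. Stretches that differ from it by a base, such as ccctatatgg and ccttgtttgg in Acta2, were not searched for and stay in lower case. No lack of a CArG box is read from lower case. Both motifs were searched on both strands.
Krt5: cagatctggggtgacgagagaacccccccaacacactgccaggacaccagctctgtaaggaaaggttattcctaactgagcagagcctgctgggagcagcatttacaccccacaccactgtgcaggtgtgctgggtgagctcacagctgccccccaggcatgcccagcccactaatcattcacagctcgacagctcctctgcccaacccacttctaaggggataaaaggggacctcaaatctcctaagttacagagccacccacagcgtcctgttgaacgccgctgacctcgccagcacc
Acta2: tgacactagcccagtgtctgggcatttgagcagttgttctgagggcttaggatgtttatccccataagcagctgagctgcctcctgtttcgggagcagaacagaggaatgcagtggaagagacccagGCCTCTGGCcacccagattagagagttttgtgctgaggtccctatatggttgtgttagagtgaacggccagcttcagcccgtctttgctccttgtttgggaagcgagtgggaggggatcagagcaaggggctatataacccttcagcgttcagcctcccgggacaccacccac
Cnn1: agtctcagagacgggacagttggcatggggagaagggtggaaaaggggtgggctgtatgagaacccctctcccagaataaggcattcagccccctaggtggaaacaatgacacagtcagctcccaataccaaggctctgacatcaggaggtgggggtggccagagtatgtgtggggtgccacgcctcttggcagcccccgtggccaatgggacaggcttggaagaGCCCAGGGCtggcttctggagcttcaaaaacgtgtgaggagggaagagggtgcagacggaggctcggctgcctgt
Myl9: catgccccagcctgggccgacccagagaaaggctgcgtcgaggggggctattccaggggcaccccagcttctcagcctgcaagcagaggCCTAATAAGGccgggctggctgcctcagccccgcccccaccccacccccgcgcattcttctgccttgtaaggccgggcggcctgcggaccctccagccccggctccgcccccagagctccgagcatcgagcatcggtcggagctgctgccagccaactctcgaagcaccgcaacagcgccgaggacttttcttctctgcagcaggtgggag

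Counted from the RefSeq start, the AP-2 motif match began 123 bases before it in Acta2 and 25 bases before it in Cnn1. The CArG match began 161 bases before it in Myl9. In GENCODE M21 the Acta2 gene begins at 34255590 (minus strand) and Cnn1 at 22099216 (plus strand), so both AP-2 matches lie inside those genes. The Krt5 window held no exact match to either pattern. Of the 284 genes higher in basal cells, 191 were matched by symbol to 265 promoters, of which 23.0% held GCCNNNGGC and 3.02% an exact CArG match. Promoters of all genes at the same level held them in 26.1% and 1.74%, and all 32851 promoters in the table in 16.6% and 1.63%. The AP-2 motif was thus no more frequent among promoters of basal-high genes than among those of all genes at that level. A match describes letters in a window and is not a site of binding.

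Basal keratins and parts of the hemidesmosome, the structure that anchors keratin filaments to the basement membrane, made up the second group. Of 17 genes, 14 were at the level and 9 of those were at least 4 times higher in basal cells in each library. Without the rule's keratins 6 of 11 were. Krt5 was close between libraries at 351, 379, 355 and 369 CPM in basal cells, against 7.14, 4.65, 11.0 and 8.62 CPM in luminal cells. Krt14, its filament partner, was at 3893, 5547, 5073 and 6267 CPM against at most 99.1 CPM, and Krt17 at 3220, 4146, 2842 and 4422 CPM against 77.7 to 130 CPM. The group also held genes that differed strongly among the basal sums. Krt15 was at 140, 181, 14.7 and 66.8 CPM, with 4OHT 1 lowest, and Krt16 at 37.4, 149, 103 and 143 CPM, with corn oil 1 lowest. Col17a1, a transmembrane collagen of the hemidesmosome, was at 54.4, 49.6, 72.4 and 51.2 CPM in basal against 0.387 to 1.81 CPM in luminal cells. The α6 integrin gene Itga6, used to sort basal cells, was at 247, 245, 191 and 183 CPM against 27.8 to 39.7 CPM. Its partner Itgb4 was at 41.3, 42.0, 32.4 and 29.4 CPM against 10.9 to 14.2 CPM, below the limit of 4 times. The laminin chain genes Lama3 and Lamb3 were counted as higher, with log2 differences of 3.67 ± 0.42 and 3.20 ± 0.18. The desmosomal cadherins Dsc3 and Dsg3 had 1 UMI each over all 7000 basal cells, and Krt6a had 32.

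**Figure D3:**
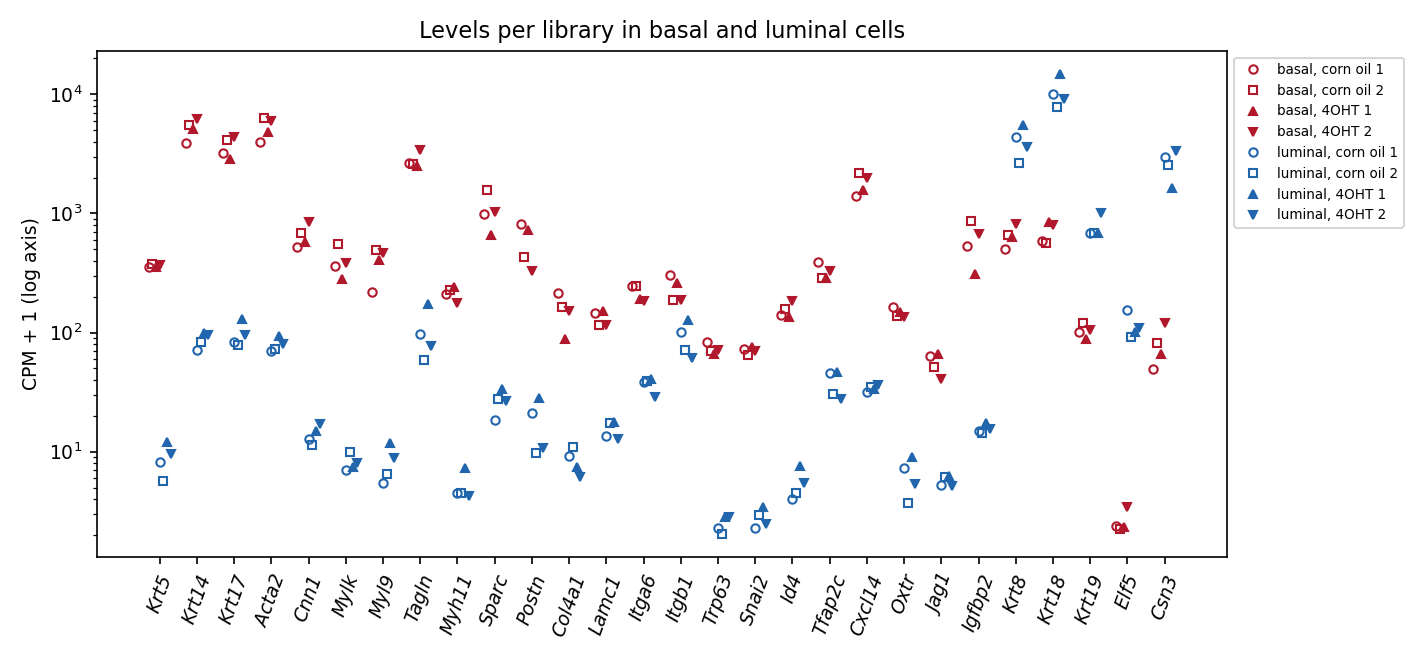
Level of 28 genes in basal cells (red) and luminal cells (blue) of each library, as CPM + 1 on a log axis, with open symbols for corn oil and filled symbols for 4OHT libraries. The genes run from those of the rule through contractile, matrix, adhesion, transcription factor and secreted groups to luminal genes. The red and blue points of Trp63 and Elf5 do not overlap. Those of Krt5 and Acta2 do not either, which the rule fixes in part.

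Basement membrane and matrix genes followed the same direction with fewer members at the level. Of 21 genes, 11 were at 20 CPM and 7 of those were at least 4 times higher in basal cells in each library. Sparc, a secreted collagen-binding protein, was at 987, 1578, 659 and 1031 CPM against 17.3 to 32.8 CPM. The paired type IV collagen chains were both lowest in 4OHT 1, with Col4a1 at 212, 162, 86.9 and 151 CPM and Col4a2 at 156, 195, 96.8 and 173 CPM. Lamc1, the laminin γ1 chain, was at 145, 114, 149 and 115 CPM and Hspg2, the heparan sulfate proteoglycan perlecan, at 49.1, 49.8, 47.9 and 40.0 CPM. Postn, which encodes the matricellular protein periostin, differed by library number rather than treatment, at 823, 433, 721 and 328 CPM. The small proteoglycan gene Bgn was at 122, 177, 70.7 and 109 CPM against 2.57 to 4.02 CPM. Lama5, a laminin chain of epithelial basement membranes, was level between the classes, with a log2 difference of 0.02 ± 0.24. Nid2 had 7 UMIs and Thbs2 none over all basal cells.

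Among adhesion receptors, 10 of 14 were at the level and 5 of those were at least 4 times higher in basal cells in each library. They were Itga1, Itga3, Itga5, Cdh3 and Vcam1. Cdh3, the gene of P-cadherin, was at 65.9, 75.2, 53.8 and 43.1 CPM in basal against 0.805 to 2.62 CPM in luminal cells. E-cadherin showed the opposite order: Cdh1 was at 87.2, 71.2, 83.7 and 81.6 CPM in basal and 190, 135, 227 and 125 CPM in luminal cells. The β1 integrin gene Itgb1, at 305, 186, 258 and 186 CPM in basal cells, was 1.40 ± 0.27 higher on the log2 scale, and Itgav did not separate the classes, at −0.20 ± 0.19. Cd44 overlapped between the classes, at 0.03 ± 0.52.

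The basal transcription factors were present at lower levels and with little overlap between classes. Of 12 genes, 9 were at the level and 6 of those were at least 4 times higher in basal cells in each library. Trp63 was at 82.6, 69.6, 64.6 and 70.5 CPM in basal and 1.29, 1.03, 1.81 and 1.84 CPM in luminal cells, a log2 difference of 4.88 ± 0.33. Snai2, which encodes the repressor Slug, was at 71.9, 64.4, 74.9 and 69.1 CPM against 1.29 to 2.42 CPM. Id4, an inhibitor of basic helix-loop-helix factors, was at 140, 157, 133 and 182 CPM against 3.04 to 6.65 CPM, and Irx4 at 39.1, 40.0, 32.2 and 32.4 CPM against 0.403 to 0.936 CPM. These 4 genes each spanned less than 1.5-fold among the basal sums. The targeted gene Tfap2c (chromosome 2, 172549593 to 172558622, plus strand, GRCm38) was also a basal gene here, at 389, 285, 285 and 326 CPM in basal and 45.2, 29.3, 45.7 and 26.7 CPM in luminal cells. Its relative Tfap2a was at 65.4, 36.5, 59.2 and 35.6 CPM in basal and 26.3 to 41.0 CPM in luminal cells and did not separate them. Bcl11b, linked to basal stem cells, had 106 UMIs over all basal cells, and Twist2 had 11.

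Ligands, receptors and secreted modulators went both ways. Of 24 genes, 18 were at the level, 10 were at least 4 times higher in basal cells and 3 at least 4 times higher in luminal cells. The oxytocin receptor gene Oxtr was at 162, 137, 147 and 135 CPM in basal and 6.32, 2.71, 7.96 and 4.37 CPM in luminal cells, a log2 difference of 4.60 ± 0.49. Cxcl14, an epithelial chemokine, was at 1391, 2184, 1580 and 1990 CPM against 30.8 to 35.2 CPM. The Notch pair lay in opposite classes, with the ligand gene Jag1 at 62.9, 50.6, 64.8 and 40.0 CPM in basal against 4.14 to 5.24 CPM in luminal cells. The receptor gene Notch1 was at 5.68, 8.12, 6.41 and 3.81 CPM in basal and 25.4 to 41.0 CPM in luminal cells. Wnt ligands divided likewise: Wnt10a was at 14.8, 31.3, 18.4 and 25.6 CPM in basal against 0.117 to 0.46 CPM in luminal cells, while Wnt7b was at 2.47, 1.84, 2.87 and 1.37 CPM against 62.3, 28.5, 67.5 and 27.0 CPM. The Wnt receptor gene Fzd7 was at 223, 158, 173 and 137 CPM against 14.1 to 21.5 CPM, and the secreted Wnt inhibitor gene Wif1, outside the list, at 36.2, 60.7, 53.6 and 65.2 CPM against 0.468 to 1.01 CPM. Edn1, the gene of endothelin 1, a peptide that contracts smooth muscle, was a luminal transcript at 87.4, 102, 150 and 151 CPM, against 0.742 to 10.4 CPM in basal cells. Of the insulin-like growth factor binding protein genes, Igfbp2 (537, 867, 308 and 673 CPM), Igfbp3 and Igfbp4 were counted as higher in basal cells. Igfbp5 was not, at 247, 346, 202 and 136 CPM against 644, 294, 493 and 244 CPM in luminal cells.

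Secreted factors outside the lists were found among the leading genes. Il17b, a cytokine of the interleukin 17 family, was at 559, 491, 190 and 515 CPM in basal and 4.64 to 11.0 CPM in luminal cells. Its level in 4OHT 1 was below the other 3 libraries, and the share of basal cells with an Il17b UMI followed it, at 43.1%, 43.5%, 17.6% and 45.4% after thinning to 2000 UMIs. Kctd4 was at 199, 151, 176 and 148 CPM, Osr1, a zinc finger transcription factor gene, at 222, 253, 265 and 324 CPM, and 1500015O10Rik at 225, 340, 492 and 369 CPM, all against at most 14.0 CPM in luminal cells.

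Most genes proposed as markers of mammary stem cells were low in the basal sums. Of 10 genes only Cd24a and Tspan8 were at the level, and both were higher on average in luminal cells. With these included, the list summed to 394, 536, 784 and 541 CPM in basal cells. Procr was at 5.07, 15.8, 21.3 and 13.5 CPM and Lgr5 at 8.77, 12, 20.1 and 10.8 CPM in basal cells. After thinning to 2000 UMIs, 0.547%, 2.0%, 1.76% and 1.5% of basal cells had a Procr UMI, against 0.0715% to 0.492% of luminal cells. Barcodes in neither class with at least 5 endothelial UMIs had one in 33.3% (2 of 6) to 60.6%. Lgr5 was seen in 2.19%, 1.83%, 4.66% and 1.5% of thinned basal cells and in 0.0702% to 0.572% of luminal cells. The highest Lgr5 and Tspan8 values were those of 4OHT 1.

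The luminal side served as the mirror. Of 24 luminal genes, 19 were at the level, 15 of those were at least 4 times higher in luminal cells in each library and none in basal cells. Elf5, the alveolar transcription factor gene, was at 1.36, 1.23, 1.35 and 2.44 CPM in basal and 153, 90.2, 101 and 107 CPM in luminal cells. The tight junction gene Cldn3 was at 17.7, 24.1, 27.0 and 26.3 CPM against 731, 860, 805 and 712 CPM. Not all luminal genes separated the classes. Gata3, needed for luminal differentiation, was at 133, 130, 161 and 123 CPM in basal and 144, 147, 138 and 160 CPM in luminal cells, overlapping in level. Epcam, an adhesion molecule of both layers, was at 775, 813, 1010 and 759 CPM in basal cells and 0.96 ± 0.27 lower than in luminal cells on the log2 scale. All 7 milk genes at the level were higher in luminal cells, and Wap had no UMI in basal cells. The hormone receptor gene Pgr was at 1.18 to 5.06 CPM and Prlr at 1.85 to 7.61 CPM in basal cells.

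Proliferation genes were near the floor in basal cells, with Mki67 at 36 UMIs and Top2a at 55 UMIs over all 7000 cells, and 1 of 10 genes at the level. The genes of cell preparation stress were high in both classes: 14 of 15 were at the level and none differed 4-fold in each library. Their basal sum was 11381, 16123, 15928 and 16750 CPM and their luminal sum 15930, 9029, 13103 and 12625 CPM. The heat shock gene Hspb1 alone was at 5143, 8735, 7698 and 7897 CPM in basal cells.

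Droplets also take up free RNA, so the share of cells with a UMI is given beside that in cells of other kinds. After thinning to 2000 UMIs, which left out 33, 177, 105 and 365 basal cells, Acta2 was seen in 82.9%, 91.3%, 79.5% and 90.1% of basal cells. Luminal cells had it in 12.1%, 12.7%, 13.5% and 12%, and endothelial-marked barcodes in 0 of 6, 10.1%, 18.2% and 15.3%. Both of these sets were chosen with a limit on the basal sum, which holds Acta2 and the 3 keratins, so their shares of these genes are not a free measure of background. A count of 0 in 6 cells allows up to 50%. Without thinning the basal shares were 89.6%, 92.8%, 83.9% and 89.9%. Krt5, a gene of lower count, was seen in 39.6%, 43.5%, 42.3% and 44.8% of thinned basal cells and 1.29% to 1.68% of luminal cells. Trp63 was seen in 13.6%, 12%, 10.8% and 12.2% of thinned basal cells and at most 0.348% of luminal cells, and Tfap2c in 43.4%, 33.6%, 34.3% and 41.3% of basal and 7.29%, 5.62%, 8.48% and 4.63% of luminal cells. These shares count cells with a captured molecule at this depth and not cells that express the gene.

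Basal cells varied among themselves in their contractile transcripts. At 2000 UMIs per cell, the summed count of 9 contractile genes (Cnn1, Mylk, Myl9, Tagln, Myh11, Tpm2, Actg2, Lmod1 and Smtn, without the rule's Acta2) had a median of 8, 10, 8 and 11, with 10th percentiles of 1, 3, 1 and 2 and 90th percentiles of 24, 29, 26 and 30. Cells without any of them were 3.69%, 1.54%, 4.35% and 2.33%. Across the 1462, 1749, 1310 and 1799 cells, Spearman's rho between this sum and the sum of 5 matrix genes (Sparc, Postn, Col4a1, Col4a2 and Lamc1) was 0.405, 0.379, 0.395 and 0.431. Between the contractile sum and the 3 keratins it lay between −0.0829 and 0.0878. These are descriptions over cells of 1 library each, which share depth and free RNA, and the keratins chose the cells. Basal cells without an Acta2 UMI had lower levels of the other contractile genes, at 1377, 1996, 1440 and 1447 CPM against 5858, 7215, 6508 and 7612 CPM in those with one. Their Trp63 was at 88.3, 68.6, 84.1 and 105 CPM against 82.0, 69.6, 61.9 and 67.7 CPM. The rule makes cells without Acta2 reach their basal sum on keratins alone: their 3 basal keratins were at 9254, 16057, 11236 and 15277 CPM against 7300, 9733, 7865 and 10714 CPM, and their luminal keratins at 871, 909, 1241 and 1267 CPM against 1216, 1358, 1613 and 1760 CPM. Nothing is read from these keratin values. Their median depth was 4177.5, 2354.5, 2951.5 and 2189 UMIs against 5227, 3229.5, 4055 and 2921, so cells without Acta2 were also shallower in each library, and the part of depth in this contrast was not tested.

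The contrast of 4OHT with corn oil was not part of the rule and was tested across libraries, within the cells that the rule chose. The values of the rule's 7 genes in this contrast are therefore limited by the choice of cells, and those of other genes can depend on it. The targeted gene was examined first. Tfap2c in basal cells was at 337 ± 72.9 CPM in the corn oil and 306 ± 29.0 CPM with 4OHT (SD, 2 libraries a group), with 4OHT 1 at the level of corn oil 2 and 4OHT 2 between the corn oil libraries. On the log2 scale the change was −0.08, standard error 0.25, at a Benjamini-Hochberg adjusted p of 0.999 (edgeR quasi-likelihood test). Its sign changed to 0.13 under the looser rule, to 0.10 without corn oil 1 and to 0.11 without 4OHT 1. A 3′ count does not show whether an exon was deleted, so the deletion was not measured, and the libraries are called corn oil and 4OHT by their labels.

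No gene of 10785 tested passed an adjusted p of 0.05 (0.0%) in basal cells (edgeR quasi-likelihood test, smallest adjusted p 0.280). At an unadjusted p under 0.05 there were 460 genes (4.27%), 227 higher and 233 lower in 4OHT libraries, and DESeq2 called 38 of the same genes tested. With replicate number as a block the edgeR test called 96, though the labels do not say that numbers pair animals. Leaving out 1 library, so that the lone library of a group is assumed to vary like the other group, gave 83 calls without corn oil 1, 29 without corn oil 2, 109 without 4OHT 1 and 38 without 4OHT 2. In simulated counts with 200 genes changed by a log2 of 2 the same test recovered 87.5% of them among 10741 genes, with 8 false calls. Those counts had the same dispersion for every gene and no difference by library number, and the changed genes were at a mean of at least 20 CPM. The share recovered is therefore not a measure of what the test could find in these libraries.

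The 8 genes named had the 4 smallest p in each direction among genes at a mean of at least 20 CPM in basal cells. They did not pass and are given as values. The smallest adjusted p of all genes tested, 0.280 (edgeR quasi-likelihood test), was not among them. Of the 4 lower ones, Iigp1, an immunity-related GTPase gene, was at 97.9 and 101 CPM in the corn oil and 27.7 and 12.5 CPM in the 4OHT libraries. Irf7, an interferon regulatory factor gene, was at 55.5 and 83.5 against 19.2 and 16.7 CPM, Ifi44 at 47.0 and 46.3 against 15.5 and 8.98 CPM, and the guanylate-binding protein gene Gbp7 at 108 and 108 against 43.3 and 26.3 CPM. The 2 libraries of a group did not overlap those of the other, but these genes were chosen by their p in this contrast. The share of all genes without overlap was not counted. Their log2 fold changes were −2.30, −1.92, −1.91 and −1.61 for Iigp1, Irf7, Ifi44 and Gbp7, with standard errors of 0.35, 0.31, 0.30 and 0.27 and an adjusted p of 0.621 for each (edgeR quasi-likelihood test). Of the 4 higher ones, Ankrd1, a gene of mechanically stressed muscle cells, was at 20.4 and 14.4 CPM in the corn oil and 56.2 and 59.5 CPM in the 4OHT libraries. Cd109, which encodes a TGF-β co-receptor, was at 17.3 and 10.3 against 49.6 and 50.4 CPM. The cytokine gene Csf3 was at 13.2 and 10.6 against 46.2 and 34.3 CPM and the prostaglandin synthase gene Ptgs2 at 15.9 and 13.8 against 42.3 and 42.0 CPM. Their log2 fold changes were 1.79, 1.91, 1.79 and 1.55 for Ankrd1, Cd109, Csf3 and Ptgs2, with standard errors of 0.28, 0.31, 0.27 and 0.26 and the same adjusted p of 0.621 (edgeR quasi-likelihood test). All 8 were called by DESeq2, by the edgeR test with no filter on low counts, by that without corn oil 1 and by that without 4OHT 1, while 2 were without corn oil 2 and 2 without 4OHT 2. With replicate number as a block all 8 passed as well (adjusted p from 0.00733 to 0.00834, edgeR quasi-likelihood test). Over the alternatives run, their adjusted p ranged from 1.08e-06 to 0.973.

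**Figure D4:**
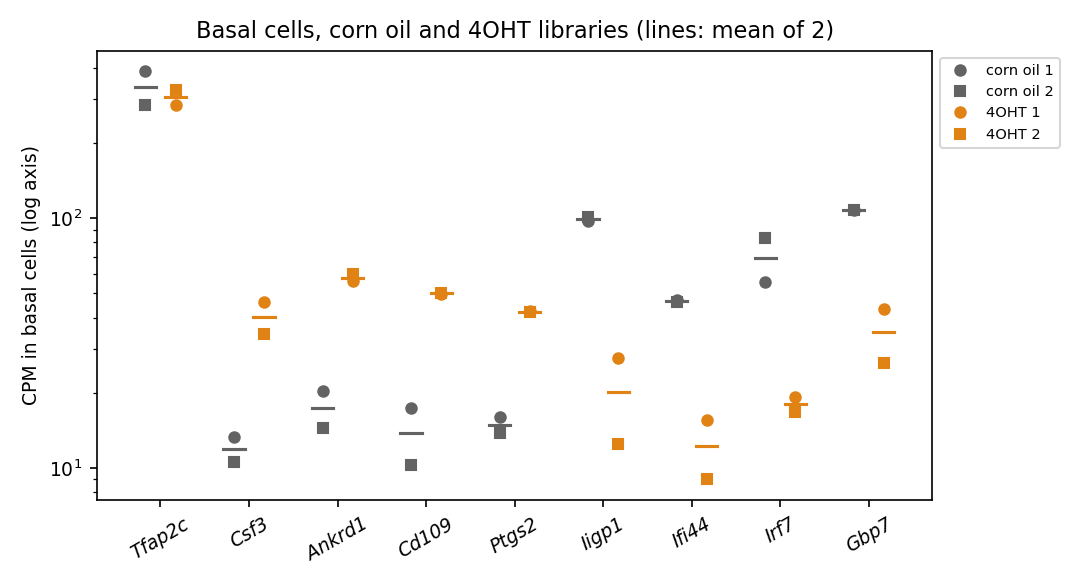
Level in basal cells of Tfap2c and of 8 genes, as CPM on a log axis, for the corn oil (grey) and 4OHT (orange) libraries. Circles are replicate 1, squares are replicate 2 and lines are the mean of 2. The 8 genes had the 4 smallest p in each direction among genes at a mean of at least 20 CPM. Csf3, Ankrd1, Cd109 and Ptgs2 were higher and Iigp1, Ifi44, Irf7 and Gbp7 lower in both 4OHT libraries than in both corn oil libraries, none past the adjusted threshold, and the Tfap2c levels overlapped.

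Whether these values belong to basal cells was asked with the interaction of treatment and cell class. None of 11922 genes passed (0.0%; smallest adjusted p 0.464, edgeR quasi-likelihood test with library as a block), 449 (3.77%) had an unadjusted p under 0.05 and DESeq2 called 1. Without 4OHT 2 there were 51 calls, and between 1 and 2 without each of the other libraries. Iigp1 was lower in the luminal cells of both 4OHT libraries as well, and most in 4OHT 2, at 47.3, 58.5, 41.1 and 10.6 CPM. Its interaction was −1.15 with a standard error of 0.34 (adjusted p = 1.00, edgeR quasi-likelihood test). Csf3 was higher in luminal cells of both 4OHT libraries too, at 51.0 and 17.2 CPM in corn oil and 74.2 and 78.0 CPM in 4OHT libraries, and its interaction of 0.43 changed sign under 2 alternatives. No gene passed for a treatment effect that differs between the classes.

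No member of the lists passed the adjusted threshold in this fit, while up to 2 members of a list did under some alternatives. None of the 19 contractile genes tested had an unadjusted p under 0.05 (edgeR quasi-likelihood test). Among all genes 4.27% did, so an absence in a list this short says little. The log2 fold change of Mylk was −0.41, with a standard error of 0.34. The list includes Acta2, which chose the cells. None of the 10 basal transcription factor genes tested had such an unadjusted p either, with the same limit. Among 24 ligands, receptors and modulators 6 did, against 4.27% of all genes: Dll1, Ednrb, Pthlh, Tgfb2, Igfbp5 and Lifr. This number depended on the setting. It was 1 of 19 after thinning to 1000 UMIs, 2 of 23 with Acta2 left out of the basal sum, and 10 of 24 with replicate number as a block. Pthlh, the gene of parathyroid hormone-related protein, was at 108, 87.3, 151 and 150 CPM, and Igfbp5 at 247, 346, 202 and 136 CPM. In the keratin list Krt15 alone did, with a log2 fold change of −1.87 and a standard error of 0.68, and among adhesion receptors Vcam1 alone, with 1.26 and 0.35. Vcam1 was at 60.2, 45.2, 172 and 77.8 CPM, so that 4OHT 1 held most of the difference. In the luminal list 3 of 21 did, Krt18 (a gene of the rule), Cldn4 and Cldn7, and 17 of 21 had a fold change above 0, beside 5189 of all 10785 genes. The direction depended on the libraries: without 4OHT 2, 11 of 21 were above 0. The median log2 fold change of the list was 0.20. It was 0.02 without 4OHT 2, 0.11 without corn oil 1, 0.50 without 4OHT 1 and 0.57 without corn oil 2. The tight junction gene Cldn4 was at 65.7 and 41.5 CPM in the corn oil and 98.5 and 136 CPM in the 4OHT libraries. The share of barcodes with both sums at least 5 was also higher in the 4OHT libraries, and its part in these values was not tested. Fn1 did in the matrix list, Tspan8 among the stem cell markers, Csn2 and Trf among 6 milk genes, and none of 7 proliferation genes. Among the 15 stress genes Fos, Fosb and Egr1 did, and 13 had a fold change above 0. Fos, an immediate early gene that responds to cell preparation, was at 171 and 298 CPM in the corn oil and 531 and 532 CPM in the 4OHT libraries, and Egr1 at 85.8 and 143 against 316 and 218 CPM. Csn2, the β-casein gene, was at 3.71 and 16.1 against 0.169 and 0.761 CPM in basal cells, and in luminal cells at 329 and 429 against 22.5 and 92.8 CPM. The part of free luminal RNA in the basal Csn2 value was not tested.

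Some genes differed by library number within both groups. The genes that differed most in the same direction within both groups were mainly ribosomal protein genes, near-identical copies and Ubb. Ubb, a polyubiquitin gene, was at 1046 and 91.0 CPM in the corn oil and 1445 and 85.6 CPM in the 4OHT libraries. Rpl10 was at 5303, 1753, 5454 and 1395 CPM and its copy Rpl10-ps3 at 598, 3605, 418 and 4177 CPM. The sum of both was near constant at 5901, 5359, 5872 and 5572 CPM, while the copy held 10.1%, 67.3%, 7.12% and 75% of it. The luminal sums gave 9.38%, 67.2%, 6.70% and 74.9%, so the split followed the library and not the class. Rps27rt held 15.3%, 48.3%, 12.1% and 56.2% of its sum with Rps27, and Ftl1-ps1 3.14%, 9.58%, 2.40% and 13.8% of its sum with Ftl1. These pairs were chosen after their values were seen. Reads shared by near-identical copies can be split by counting, so the single levels of these genes are uncertain. Gm10260, Gm10076 and Rpl29 were also higher in the libraries numbered 1, and Gm9774 and Gm6169 in those numbered 2.

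**Figure D5:**
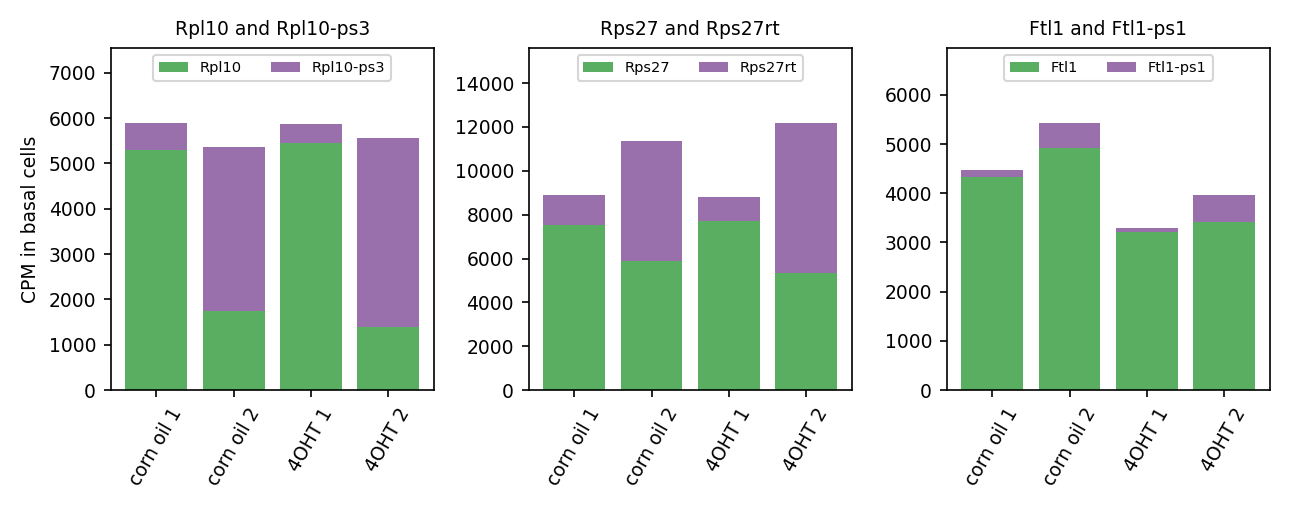
Level in basal cells (CPM, bars stacked from 0) of 3 genes and their near-identical copies in each library. The Rpl10-ps3 part was 10.1% and 7.12% in the libraries numbered 1 and 67.3% and 75% in those numbered 2, while the sum of Rpl10 and its copy lay between 5359 and 5901 CPM.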

How the data were processed

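Single-cell 3′ libraries of mammary epithelial cells from 4 mice were analysed, each library as 1 replicate. Raw UMI counts of each gene in each barcode were deposited, made by the authors with Cell Ranger 3.0.1 on mm10, per the submitters' processing notes. The use of introns and of strand is not given in the sources used here. Barcodes were filtered and classed by the stated rule, and summed within each class of a library. The members and gene lists were chosen with earlier results of these data known. No doublet caller was run: barcodes with both sums at least 5 and no 3-fold excess fell in neither class, but mixed droplets can remain. Endothelial-marked barcodes had at least 5 UMIs of the 9 endothelial genes and were in neither class.

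CPM and log2 differences (1 CPM added) of basal against luminal cells are descriptive. Genes were named as the 15 and 10 with the largest difference in the least favourable library, up to 6 members of each list by mean basal CPM, the genes of the rule and Tfap2c, the 4 smallest p per direction for treatment (at least 20 CPM), and the 5 largest replicate differences per direction (at least 50 CPM). Other list members named were chosen after their values were seen. A result for 1 list member is not reported here.

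Treatment was tested on sums with edgeR 4.0.16 (R 4.3.3; TMM, filterByExpr, quasi-likelihood F-test, Benjamini-Hochberg adjustment, threshold 0.05), the interaction with library as a block, and DESeq2 1.42.0 as an alternative. Shares were tested by an exact two-sided permutation test that went through every split of the libraries. Spearman's rho was taken with scipy 1.17.1. Shares of cells with a UMI were taken after thinning to 2000 UMIs. Limits set by a count of 0 reflect counting error alone. The tests were run on simulated counts with the same dispersion for every gene. Other alternatives were other filters, size factors, cell rules, thinning and each library left out. Gene positions are from GENCODE M21 and promoters from RefSeq (GRCm38.p6).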

Additional observations from a re-analysis of the deposited data

Results flagged for a closer look

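Barcodes outside both classes were not part of the comparisons, and one kind of them was more frequent in the 4OHT libraries. Barcodes with at least 5 UMIs of the basal genes and at least 5 of the luminal genes, without a 3-fold excess of either, made up 18.1% of kept barcodes in 4OHT 1 and 16.3% in 4OHT 2. The corn oil libraries had 9.77% and 6.73%, so both 4OHT libraries lay above both of them (exact two-sided permutation p = 0.333, the smallest possible with 2 against 2). In numbers these were 837 and 873 barcodes of 4624 and 5347, against 341 and 283 of 3490 and 4206. The 4OHT libraries also held more barcodes. The part of that in the share was not tested.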

How the results depend on the processing

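The count of genes called for treatment in basal cells, 0, was 106 with no filter on low counts, 38 with DESeq2 and between 29 and 109 with 1 library left out, and stayed 0 under the other alternatives except the block below. The count for the interaction, 0, was 50 with no filter, 1 with DESeq2 and between 1 and 51 with 1 library left out. The cause of these shifts was not tested. With replicate number as a block the counts were 96 and 12, all 8 genes named for treatment passed (adjusted p from 0.00733 to 0.00834, edgeR; 1.08e-06 to 0.973 over all alternatives), and so did 1 gene each of the keratin, adhesion and ligand lists and 2 each of the milk and stress lists. The labels do not say that numbers pair animals, although corn oil 1 and 4OHT 1 deviated together from their group means (correlation 0.565 over 10785 genes). With 2 libraries a group, those numbered 2 give the same value by construction.

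The counts of genes higher in basal and in luminal cells, 284 and 157, were 621 and 305 at 2 times in place of 4, 438 and 237 at 5 CPM in place of 20, and 129 and 60 with 10 CPM added. Of the single values, the treatment value of Tfap2c turned to 0.13 under the looser rule and lay between −0.28 and 0.11 with 1 library left out. The interaction value of Csf3 turned to −0.29 under the stricter rule. With 1 library left out it lay between −0.31 and 1.06 for Csf3, between −0.44 and 1.997 for Ankrd1 and between −1.18 and 0.14 for Gbp7. The small uncalled basal to luminal differences of Cd44, Gata3, Hspa1a, Ier3 and Jun also changed sign under some alternatives, and no other single value did. In all, 1006 single values stayed on their side of the threshold or within their spread, 57 passed the threshold and 161 basal to luminal differences moved by more than their spread.

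With 2 libraries per group, shares cannot reach p under 0.333. Basal cells of the libraries numbered 2 were shallower, which limits genes of few UMIs.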
